A study of Sus scrofa with 6 samples.

Results

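Insulin-like growth factors (IGFs) are small secreted hormones that drive growth of cartilage and other tissues. The ligands IGF1 and IGF2 act through IGF1R, a receptor tyrosine kinase at the cell surface. A family of secreted IGF binding proteins (IGFBPs) holds the ligands in the tissue fluid and matrix, and thereby limits or prolongs their access to the receptor. Chondrocytes make several of these proteins themselves.

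The 10 genes described here are the ligands IGF1 and IGF2, the receptor IGF1R and the binding proteins IGFBP1 to IGFBP7, of 19670 gene models in all. They were found by the symbol of the gene identifier (7 genes) or else by the protein name in the deposited annotation (3 genes: IGF2, IGFBP2 and IGFBP3). A further 3 models carry the protein name of IGF1R or IGFBP5 and are described beside those genes. Of the 10 genes, 9 had enough reads to be tested and IGFBP1 did not.

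The starting material was cartilage of the external ear (auricular cartilage) of 1 pig, a Duroc × (Landrace × Large White) cross 4 months old whose PPARD was wild-type, and its cells were freed with enzymes and used as primary culture. The cells were kept for 24 h with DMSO, the solvent, or with GW0742, a synthetic agonist of PPARD, a nuclear receptor that responds to fatty acids, and 3 libraries were made per group. The series asks how PPARD acts on cartilage of the external ear. Nothing in the labels says that the 3 cultures of a group were separate, so p-values measure only how far these libraries scatter, which can be technical scatter, and do not extend to other animals.

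The libraries held 13133894 to 16913742 reads. Known targets of PPARD moved with the agent: ANGPTL4 passed the test at a log2 fold change of 3.14 (edgeR adjusted p = 0.000193), and PDK4 and CPT1A also passed the test (edgeR adjusted p = 0.00151 for each, log2 4.05 and 1.95), while PPARD itself did not (log2 0.11, adjusted p = 0.499). The cartilage markers SOX9, COL2A1 and ACAN were all present, but COL9A1 (0.98 to 1.86 CPM, counts scaled to library size) and HAPLN1 (5.29 to 9.30 CPM) were low. The 6 fibroblast markers summed to 51393 to 62066 CPM against 1976 to 2552 CPM for 12 cartilage markers. Most of the fibroblast sum came from COL1A2 and VIM (39574 ± 2201 and 13872 ± 179 CPM with DMSO, SD, n = 3). DCN and LUM were at 72.6 ± 14.7 and 37.7 ± 8.28 CPM with DMSO, so the sums do not weigh the markers evenly. Over all genes the first principal component (36.3% of the variance) parted the groups, and on the second (23.2%) DMSO replicate 2 stood far from its group. In CPM that library also had the lowest IGF1, IGF1R and IGFBP2 of the 6, and the highest IGF2, IGFBP4, IGFBP5 and IGFBP6. Values without it are therefore given beside each of these genes.

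The binding proteins outweighed the ligands and the receptor at the RNA level. On the RPKM scale, which divides reads by transcript length and library depth and so allows genes to be compared, IGFBP5 was highest with DMSO at 418 ± 51.1 RPKM (SD, n = 3). IGFBP2 followed at 202 ± 42.8 RPKM, then IGFBP7 at 60.2 ± 6.29 RPKM and IGFBP6 at 57.8 ± 8.05 RPKM. IGF2 (17.3 ± 5.31 RPKM) and IGFBP4 (12.6 ± 2.53 RPKM) came next, followed by IGF1R at 8.69 ± 0.273 RPKM, IGFBP3 at 5.09 ± 0.628 RPKM and IGF1 at 3.16 ± 1.38 RPKM. IGFBP1 was lowest at 0.0685 RPKM. The libraries of IGFBP7 and IGFBP6 overlapped, as did those of IGF2 and IGFBP4, and all other neighbours in this order were separated in the 3 DMSO libraries. The place of IGF1R depends on the model, since ENSSSCG00000004812 and ENSSSCG00000030576, which carry its protein name, stood at 39.9 ± 9.50 and 14.3 ± 7.01 RPKM. A further model of IGFBP5, ENSSSCG00000016178, stood at 112 ± 10.8 RPKM. IGF1 and IGFBP5 have several transcripts per model, so their RPKM is not reads over 1 fixed length.

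With GW0742 the top of the order was the same, with IGFBP5 at 397 ± 43.6 RPKM and IGFBP2 at 182 ± 12.0 RPKM, but IGFBP7 (109 ± 6.81 RPKM) was now clear of IGFBP6 (64.2 ± 3.78 RPKM) in all libraries. IGFBP4 (12.2 ± 0.555 RPKM), IGF1R (11.7 ± 2.04 RPKM), IGF2 (11.7 ± 1.74 RPKM) and IGFBP3 (10.6 ± 2.33 RPKM) formed a run in which each overlapped the next. IGF1 (3.23 ± 0.818 RPKM) and IGFBP1 (0.0689 RPKM) stayed last.

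**Figure D1:**
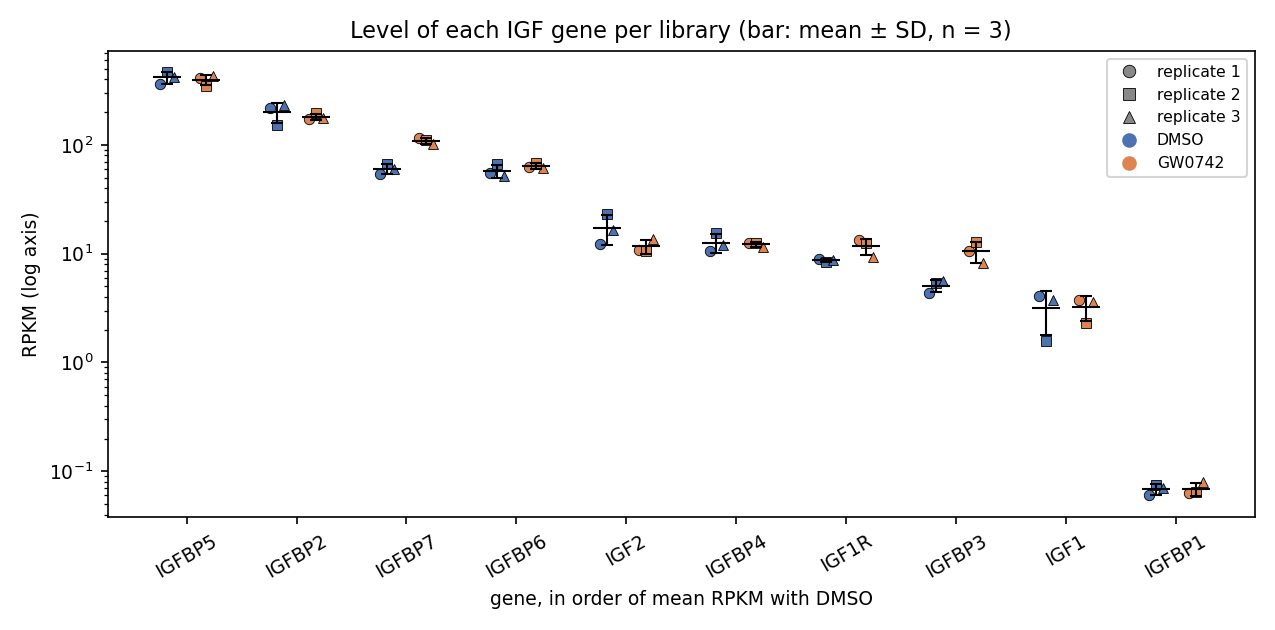
RPKM (log axis) of the 10 genes in each of the 6 libraries, ordered by their mean with DMSO, with DMSO in blue and GW0742 in orange, symbols for the replicate number and black bars for mean ± SD (n = 3). Levels run from 418 RPKM for IGFBP5 to 0.0685 RPKM for IGFBP1 with DMSO, and the groups are separated for IGFBP7, IGFBP3 and IGF1R.

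Of the 9 tested genes, 1 rose with GW0742 (IGFBP7), none fell and 8 did not pass the test. The test was the quasi-likelihood F-test of edgeR, adjusted over 14146 models, of which 0.184% were called higher and 0.0778% lower, 0.262% in all. At an unadjusted p under 0.05 there were 3 genes (IGFBP7, IGFBP3 and IGF1R), all higher, against 16.8% of all models. DESeq2 called 2 of the 9, IGFBP7 and IGFBP3, against 3.12% of all models. The CPM values of the groups did not overlap in 4 of the 9 genes, 3 higher (IGF1R, IGFBP3 and IGFBP7) and 1 lower (IGFBP5), against 23.4% of all models. The median log2 fold change of the 9 was -0.07, with 4 above 0 and 5 below, and that of all tested models -0.0015.

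**Figure D2:**
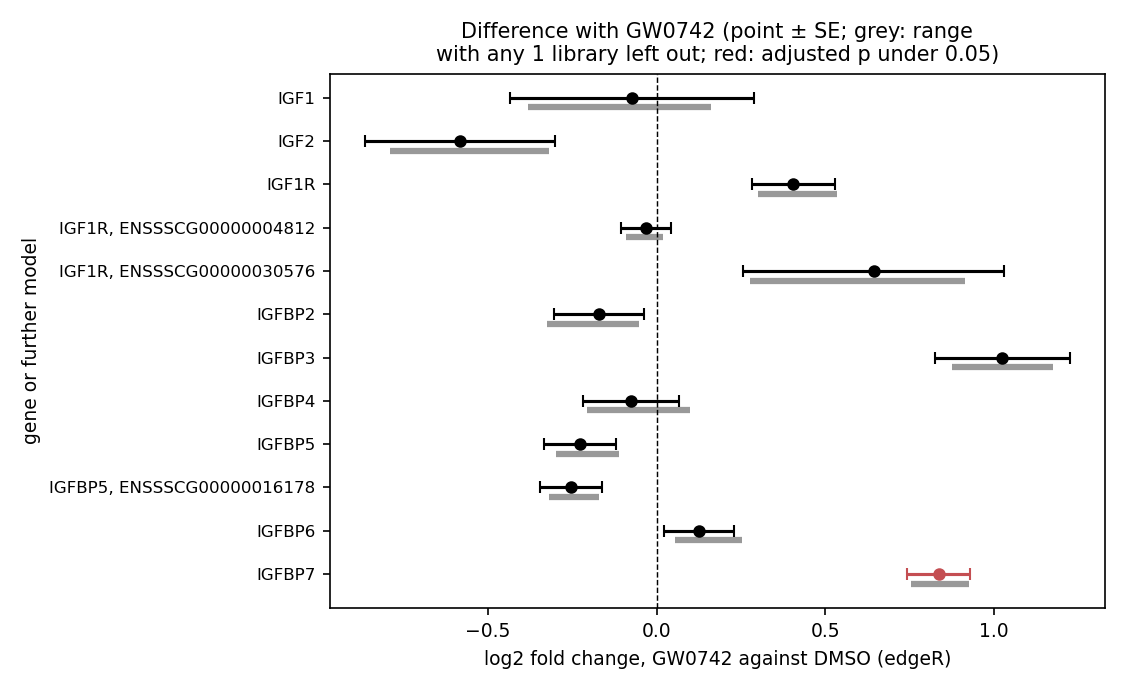
Log2 fold change of GW0742 against DMSO for the 9 tested genes and the 3 further models of IGF1R and IGFBP5, as point ± SE from edgeR, with a grey bar for the range when any 1 library is left out. IGFBP7 (red, log2 0.84) passed the adjusted threshold, IGFBP3 had the highest value (log2 1.03), and the bars of IGF1, IGFBP4 and IGF1R model ENSSSCG00000004812 cross 0.

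The ligands did not pass. IGF1 (ENSSSCG00000000857), the growth hormone-induced ligand that acts in blood and locally, was read 67, 20 and 61 times in the DMSO libraries and 44, 33 and 52 times in the GW0742 libraries. That is 3.98, 1.5 and 3.66 CPM with DMSO and 3.37, 2.06 and 3.40 CPM with GW0742. The groups overlapped, and the lowest value was that of DMSO replicate 2. The log2 fold change was -0.07 ± 0.36 (SE, edgeR adjusted p = 0.943), and -0.38 without that library (adjusted p = 0.493).

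IGF2, the ligand best known from fetal growth, is represented by a model of only 195 bases whose protein match is weak (ENSSSCG00000024883, BLAST E = 3.51e-06), so its level is uncertain. It was read 40, 61 and 54 times with DMSO and 27, 32 and 41 times with GW0742. In CPM these were 2.37, 4.58 and 3.24 with DMSO and 2.07, 2.00 and 2.68 with GW0742, and the groups overlapped through DMSO replicate 1 and GW0742 replicate 3. The log2 fold change was -0.58 ± 0.28 (edgeR adjusted p = 0.342). Without DMSO replicate 2, which held the highest value, it was -0.32 (adjusted p = 0.554).

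The receptor IGF1R is split over 3 models. The model that carries the symbol, ENSSSCG00000030560 (2868 bases, 1 transcript), stood at 27.7, 26.7 and 27.1 CPM with DMSO and at 41.4, 37.5 and 29.3 CPM with GW0742. All 3 GW0742 libraries were above all DMSO libraries, with replicate 3 close to them. The log2 fold change was 0.41 ± 0.12 (edgeR adjusted p = 0.164, DESeq2 adjusted p = 0.0887), and reached 0.54 without GW0742 replicate 3 (adjusted p = 0.0511). Without DMSO replicate 2 it was 0.39 (edgeR adjusted p = 0.236).

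Most reads of IGF1R lay on another model. ENSSSCG00000004812 (13393 bases, 4 transcripts), with the same protein name, stood at 194, 216 and 199 CPM with DMSO and 197, 184 and 214 CPM with GW0742, a log2 fold change of -0.03 ± 0.07 (edgeR adjusted p = 0.866). The short model ENSSSCG00000030576 (531 bases) varied most, at 9.67, 3.60 and 10.9 CPM with DMSO and 11.2, 18.3 and 8.63 CPM with GW0742 (log2 0.64 ± 0.39, edgeR adjusted p = 0.437). The 3 models had different log2 values, a difference that was not tested, and with their reads summed the receptor had a log2 fold change of 0.06 ± 0.06 (edgeR adjusted p = 0.655). Estimated reads may be divided between models of 1 protein, and a change of the gene cannot be told apart from such a division.

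For ENSSSCG00000004812 the deposited RPKM and the reads went apart. Its RPKM values were 34.9, 50.8 and 34.0 with DMSO and 49.4, 62.2 and 63.1 with GW0742, a log2 difference of 0.55 in limma on log2(RPKM + 1) (adjusted p = 0.216). In models of several transcripts the deposited RPKM is not the reads divided by the listed length, so a length in bases was computed that links the reads to the RPKM in each library. If the authors added RPKM over transcripts, which no header states, this length follows from the transcripts that the reads were assigned to. It was 5191, 3851 and 5378 bases with DMSO and 3690, 2826 and 3145 bases with GW0742. It was shorter in every GW0742 library than in every DMSO library, with DMSO replicate 2 closest to the GW0742 libraries (exact permutation test, two-sided p = 0.1, the smallest that 3 against 3 libraries can give). Among 1322 models of several transcripts with over 50 reads in every library, 11.1% were shorter with GW0742 in this way, and 0.378% had a lower log2 ratio than the -0.58 of this model. Values per transcript were not analysed here. This measure was chosen after its values were seen.

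**Figure D3:**
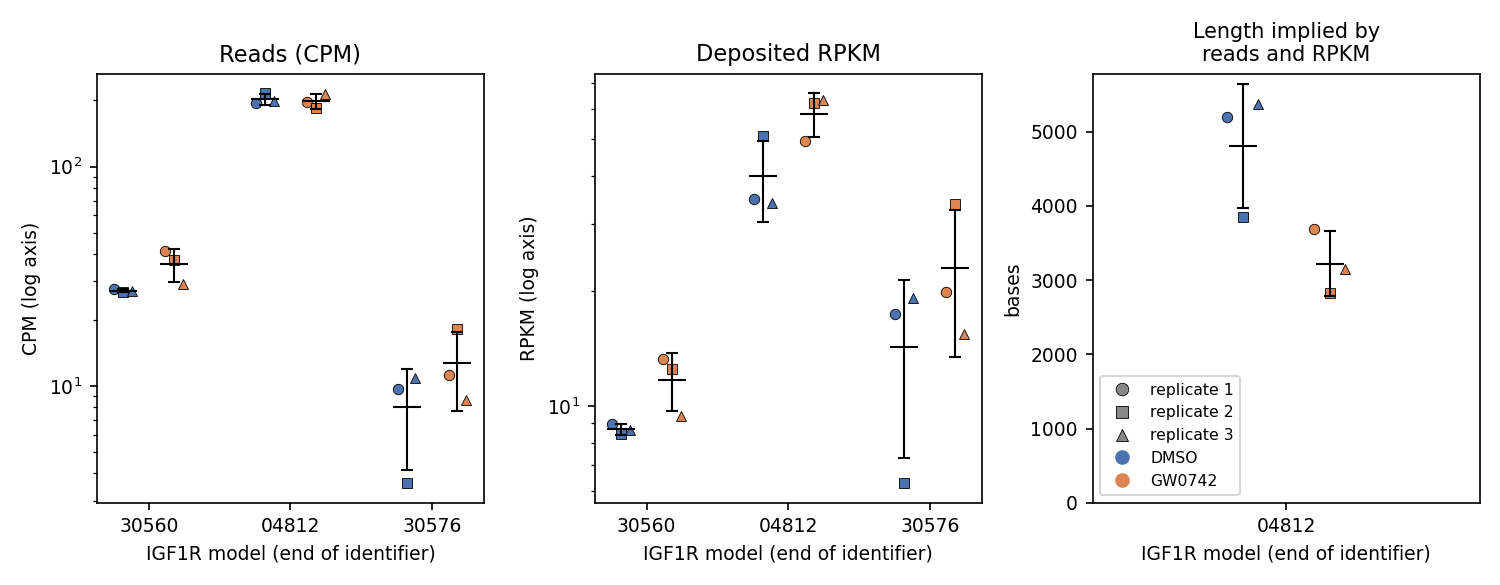
The 3 IGF1R models in each library as CPM and as deposited RPKM (log axes), and the length in bases that reads and RPKM imply for ENSSSCG00000004812 (linear axis from 0), with DMSO in blue, GW0742 in orange and bars for mean ± SD (n = 3). ENSSSCG00000030560 is higher with GW0742 in both units, ENSSSCG00000004812 has overlapping CPM, and the implied length of the latter is 3851 to 5378 bases with DMSO and 2826 to 3690 bases with GW0742.

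Among the binding proteins IGFBP7 rose. IGFBP7 (ENSSSCG00000008913) binds IGFs only weakly, is found in the extracellular matrix and is known as a product of blood vessels among other sources. It was read 1094, 1097 and 1217 times in the DMSO libraries and 1828, 2081 and 1889 times in the GW0742 libraries. In CPM the values were 64.9, 82.4 and 73.0 with DMSO and 140, 130 and 123 with GW0742. Every GW0742 library lay well above the highest DMSO library. The fitted level was 78.6% higher (log2 0.84 ± 0.09 SE, edgeR adjusted p = 0.0152), the 11th smallest p of all models. DESeq2 gave an adjusted p of 3.13e-13. The direction held in 13 of 13 alternative fits and the log2 value ran from 0.75 to 0.93, but the call was lost without DMSO replicate 1 (adjusted p = 0.0734), DMSO replicate 3 (0.0815) or GW0742 replicate 1 (0.105), and with a replicate block (0.099). Without DMSO replicate 2 the call held (log2 0.93, adjusted p = 0.0168).

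By the shape of their values over the 6 libraries, PPP1R3D, MARVELD1 and CAT were nearest to IGFBP7 among 6279 genes with a symbol and a mean of at least 10 CPM. The measure was the root mean square difference of log2 CPM, each centred on its own mean, and it was 0.11 for PPP1R3D, 0.12 for MARVELD1 and 0.13 for CAT, against a median of 0.45. PPP1R3D, a glycogen-targeting subunit of protein phosphatase 1, stood at 11.7 ± 1.30 and 20.8 ± 3.73 CPM with DMSO and GW0742 (SD, n = 3). MARVELD1, a membrane protein, stood at 18.8 ± 2.27 and 29.3 ± 1.05 CPM, and neither it nor PPP1R3D passed in edgeR (adjusted p = 0.0609 and 0.0692). CAT, the peroxisomal enzyme that breaks down hydrogen peroxide, was at 62.9 ± 3.10 and 106 ± 3.51 CPM and did pass (edgeR adjusted p = 0.00384). These genes were picked because their values resemble those of IGFBP7, so a difference between the groups was built into the choice.

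IGFBP3 (ENSSSCG00000016729), the main carrier of IGFs in blood, had the highest log2 value of the family but few reads. It was read 63, 63 and 80 times with DMSO and 120, 172 and 108 times with GW0742, or 3.74, 4.73 and 4.80 CPM against 9.19, 10.7 and 7.06 CPM. The groups did not overlap, and GW0742 replicate 3 was the lowest of the treated libraries. The log2 fold change was 1.03 ± 0.20 and did not pass in edgeR (adjusted p = 0.0764). DESeq2 called it higher (adjusted p = 0.00436), and without GW0742 replicate 3 edgeR did so too (log2 1.17, adjusted p = 0.0497). IGFBP1, which neighbours IGFBP3 in RefSeq's gene list for Sscrofa11.1 and is made mainly by the liver under control of insulin, had 1 or 2 reads in each of the 6 libraries. That is below a floor of 3 reads in every library, so no fold is given.

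Values of markers of endothelium, the lining of blood vessels, are given here beside IGFBP7 and IGFBP3. Of 13 listed markers 10 had a model with their symbol, 9 were tested and none passed in edgeR. On the log2 scale 8 of the 9 were above 0 and 1, ERG, was below (-0.06 ± 0.08), with a median of 1.10. That median is the value of ROBO4 (± 0.58 SE). With DMSO, ROBO4 (0.297 to 0.840 CPM) and TIE1 (0.451 to 0.653 CPM) were near the floor of 3 reads. KDR (1.14 to 1.80 CPM) and ESAM (0.831 to 1.80 CPM) were also low with DMSO. At an unadjusted p under 0.05 there were 6 of the 9, against 16.8% of all models. In 5 of the 9 (PECAM1, KDR, ESAM, EGFL7 and CLDN5) the GW0742 libraries were higher without overlap, against 11.4% of all models, while TIE1, FLT1, ROBO4 and ERG overlapped. DESeq2 called PECAM1 and KDR higher, against 1.46% of all models. The summed level of the 10 was 118 to 150 CPM in the DMSO libraries and 150.4 to 197 CPM in the GW0742 libraries. Most of the DMSO sum came from ERG and CLDN5 (51.5 ± 3.43 and 48.3 ± 11.4 CPM with DMSO). None of the 10 was at 0 in all libraries, but TEK, the untested one, was about at the floor with DMSO (0.119 to 0.240 CPM). PECAM1, by which endothelial cells adhere to each other, had 11.9, 12.2 and 11.1 CPM with DMSO and 28.3, 35.0 and 15.6 CPM with GW0742. Of the treated libraries, replicate 2 was highest and replicate 3 lowest for both IGFBP3 and PECAM1. The first principal component over all genes had that order too (31.1, 21.8 and 12.1 in GW0742 replicates 2, 1 and 3). With DMSO the 2 genes differed, since replicate 3 was highest for IGFBP3 and lowest for PECAM1. IGFBP7 was highest in GW0742 replicate 1 and differed by less between the treated libraries. The part of endothelial RNA in these results was not tested. In such bulk samples fewer or more cells of a type and less or more RNA per cell cannot be told apart.

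**Figure D4:**
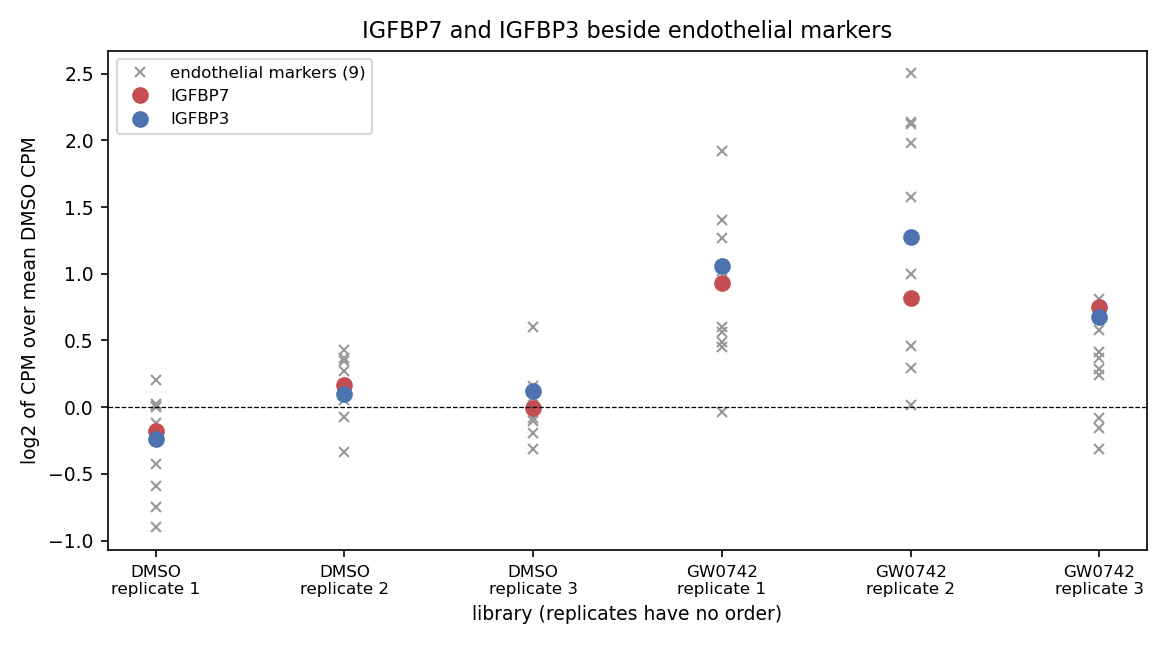
Log2 of CPM over the mean DMSO CPM in each library for IGFBP7 (red), IGFBP3 (blue) and the 9 tested endothelial markers (grey crosses). IGFBP7 sits at similar heights in the 3 GW0742 libraries (123 to 140 CPM), while IGFBP3 (7.06 to 10.7 CPM) and several markers are lower in GW0742 replicate 3.

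IGFBP5 and IGFBP2, the most abundant of the binding proteins, did not pass, nor did IGFBP4 and IGFBP6. IGFBP5 (ENSSSCG00000025924), which binds to matrix and is made by bone and cartilage cells, stood at 890, 1012 and 937 CPM with DMSO and 866, 672 and 886 CPM with GW0742. The GW0742 values were all below the DMSO values, by a narrow gap in replicates 1 and 3. The log2 fold change was -0.23 ± 0.11 (edgeR adjusted p = 0.328), and -0.11 without GW0742 replicate 2. Without DMSO replicate 2 it was -0.18 (edgeR adjusted p = 0.496). A further model of its protein, ENSSSCG00000016178, was also without overlap, at 87.3, 94.4 and 106 CPM with DMSO and 82.8, 73.3 and 85.7 CPM with GW0742 (log2 -0.25 ± 0.09, edgeR adjusted p = 0.22). In RPKM the groups of the first model overlapped. The length that links its reads to its RPKM was 2271, 1961 and 2049 bases with DMSO. With GW0742 it was 1929, 1847 and 1908 bases. That length was shorter in every GW0742 library, against 11.1% of the models of several transcripts. The 12 cartilage markers summed to between 2409 and 2552 CPM in DMSO libraries and between 1976 and 2104 CPM in GW0742 libraries, most of it from COL11A1, ACAN and COL2A1, and none was at 0 in all libraries. Of the 12, 8 log2 values were below 0 and 4 above (MATN4 0.43, SNORC 0.34, MATN3 0.08 and COMP 0.06), and without overlap 4 were lower and 2 higher, against 12.1% and 11.4% of all models. ACAN was called lower in edgeR (log2 -0.50, adjusted p = 0.0185), against 0.0778% of all models. DESeq2, which called 3.12% of all models in either direction, also called COL11A1 lower (log2 -0.28, DESeq2 adjusted p = 0.00683). GW0742 replicate 2 was lowest both in this sum and in IGFBP5. It was also lowest in the fibroblast sum (51393 CPM) and in the sum of 7 smooth muscle and pericyte markers (6439 CPM). The part of any of these cell types in the IGFBP5 values was not tested.

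IGFBP2 (ENSSSCG00000026123), the neighbour of IGFBP5 in the RefSeq table and a protein prominent in fetal tissue, stood at 147, 105 and 158 CPM with DMSO and at 117, 128 and 120 CPM with GW0742. DMSO replicate 2 was the lowest of the 6 libraries and the other DMSO libraries the highest. The log2 fold change was -0.17 ± 0.13 (edgeR adjusted p = 0.559). Without DMSO replicate 2 it was -0.32 (adjusted p = 0.107).

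IGFBP4 (ENSSSCG00000017472), an inhibitor of IGF action that the protease PAPPA cleaves, stood at 23.9, 36.2 and 27.8 CPM with DMSO and at 28.9, 27.8 and 26.5 CPM with GW0742. Its groups overlapped widely (log2 -0.08 ± 0.14, edgeR adjusted p = 0.83), and the sign turned without DMSO replicate 2 (log2 0.10). IGFBP6 (ENSSSCG00000000261), which prefers IGF2 over IGF1, stood at 70.0, 88.1 and 67.1 CPM with DMSO and 81.6, 85.2 and 78.5 CPM with GW0742. DMSO replicate 2 was again the one that overlapped (log2 0.13 ± 0.10, edgeR adjusted p = 0.574), and without it the log2 value was 0.25 (adjusted p = 0.151).

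The shares of IGFBP7 and IGFBP3 among the binding proteins differed between the groups without overlap. Summed over the 7 genes, RPKM was 755 ± 40.1 with DMSO and 776 ± 24.1 with GW0742, and the groups overlapped (exact permutation test, two-sided p = 0.5). The difference of 21.3 RPKM changed sign without DMSO replicate 1 (-1.80) and was 2.84 after rescaling by TMM factors. IGFBP7 took 7.63, 8.60 and 7.66% of this sum in the DMSO libraries and 14.6, 14.8 and 12.9% in the GW0742 libraries. IGFBP3 took 0.618 to 0.711% with DMSO and 1.04 to 1.72% with GW0742. In both, every GW0742 library was above every DMSO library, at the smallest p that this design allows (exact permutation test, two-sided p = 0.1). IGFBP5 took 55.2 ± 4.58% and 51.1 ± 4.12%, and IGFBP2 26.8 ± 6.18% and 23.5 ± 2.31%, with overlap. These shares are of RNA per transcript length, not of protein. The sum and the shares use the deposited RPKM of IGFBP5, whose implied length was shorter in every GW0742 library. They leave out its further model ENSSSCG00000016178, at 112 ± 10.8 RPKM with DMSO and 96.0 ± 6.07 RPKM with GW0742. With that model counted, the shares of the other genes would be smaller.

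**Figure D5:**
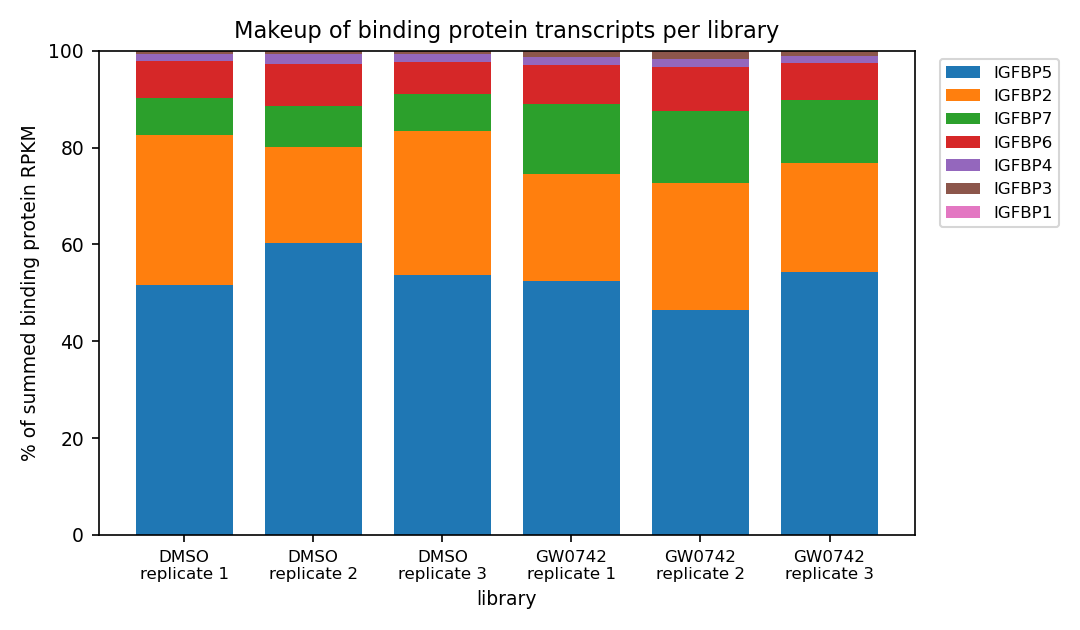
Share of the summed binding protein RPKM taken by each IGFBP in the 6 libraries (stacked bars, 0 to 100%). IGFBP5 and IGFBP2 fill most of every bar, and the IGFBP7 band is 7.63 to 8.60% with DMSO and 12.9 to 14.8% with GW0742.

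The ligands IGF1 and IGF2 summed to 20.4 ± 4.00 RPKM with DMSO and 14.9 ± 2.26 RPKM with GW0742 (exact permutation test, two-sided p = 0.2). Binding protein RPKM per ligand RPKM was 42.9, 31.6 and 38.5 with DMSO and 54.2, 58.5 and 45.7 with GW0742. The groups did not overlap (exact permutation test, two-sided p = 0.1, the smallest possible). However, the ratio rests on the short IGF2 model and on the RPKM of IGFBP5, whose implied length differed between the groups.

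None of the tested genes of 4 further pathway lists passed in edgeR. HTRA1 and HTRA3 are listed both among the extracellular regulators and among the relatives of the IGFBPs, and are counted in each. Among receptors and extracellular regulators 14 of 20 listed genes were tested, 9 above 0 and 5 below on the log2 scale (median 0.06). Of the 14, 4 had an unadjusted p under 0.05, against 16.8% of all models. DESeq2 called none of the 14. IGF2R, which takes up IGF2 for breakdown, was at 283 ± 15.7 and 300 ± 14.0 CPM with DMSO and GW0742 (SD, n = 3), and the insulin receptor INSR at 5.49 ± 1.10 and 5.70 ± 1.23 CPM. STC1, an inhibitor of PAPPA, had the highest log2 value (0.399 ± 0.184 and 1.26 ± 0.451 CPM, log2 1.67 ± 0.42, edgeR adjusted p = 0.122). Its DMSO values, 0.240 to 0.601 CPM, were near the floor of 3 reads. STC2 of the same list was far more abundant (145 ± 12.1 and 142 ± 0.943 CPM, log2 -0.03 ± 0.07). IGFALS, the subunit that joins IGFBP3 and IGF in the complex of blood, had the second highest log2 value, at 1.01 ± 0.113 and 1.84 ± 0.45 CPM (adjusted p = 0.169). PAPPA itself stood at 116 ± 3.15 and 131 ± 8.72 CPM (log2 0.18 ± 0.07, edgeR adjusted p = 0.227). The lowest values were those of the growth hormone receptor GHR (log2 -0.29 ± 0.21) and the protease PRSS23 (log2 -0.09 ± 0.09).

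None of the relatives of the IGFBPs that share the IGF binding domain passed in edgeR. Of the 10 tested, 6 had an unadjusted p under 0.05, against 16.8% of all models. Above 0 were 8 log2 values of the 10 (median 0.26), and 6 genes were higher without overlap, against 11.4% of all models. DESeq2 called 2 of them, against 1.46% of all models called higher. ESM1, a proteoglycan secreted by endothelium, was 1.31, 1.43 and 1.26 CPM with DMSO and 3.14, 4.49 and 2.81 CPM with GW0742 (log2 1.39 ± 0.25, edgeR adjusted p = 0.0692, DESeq2 adjusted p = 0.0194). CRIM1, a membrane protein that binds bone morphogenetic proteins, was 231, 240 and 240 CPM with DMSO and 297, 291 and 275 CPM with GW0742 (log2 0.28 ± 0.06, edgeR adjusted p = 0.0794, DESeq2 adjusted p = 0.00165). NOV, a matricellular protein of the CCN family, was 3.47 ± 0.406 and 5.99 ± 1.00 CPM (log2 0.79 ± 0.20, edgeR adjusted p = 0.118). The most abundant of these relatives, the protease HTRA1 and the matrix protein CYR61, had log2 values of -0.06 ± 0.06 and 0.05 ± 0.07, and KAZALD1 was at -0.0049 ± 0.32.

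Signalling genes downstream of the receptor showed small differences. Of 40 listed genes 32 were tested, 17 above 0 and 15 below (median log2 fold change 0.02). Of the 32, 3 had an unadjusted p under 0.05, against 16.8% of all models. DESeq2 called none. GIGYF2 and PIK3R1 had the highest log2 values (0.23 ± 0.10 and 0.23 ± 0.39), and the kinase subunit PIK3CB and the ubiquitin ligase CBL the lowest (-0.23 ± 0.17 and -0.20 ± 0.08). EIF4EBP1, a brake on translation that mTOR releases, was at 359 ± 15.6 and 315 ± 3.77 CPM (log2 -0.19 ± 0.06, edgeR adjusted p = 0.162). The docking protein IRS1 stood at 40.4 ± 1.18 and 43.2 ± 1.41 CPM (adjusted p = 0.508). Among regulators of IGF2 RNA and IGF2 expression 4 of 10 listed genes were tested, all with log2 values below 0: PLAG1 (-0.22 ± 0.26), PLAGL1 (-0.21 ± 0.12), CTCF (-0.12 ± 0.12) and IGF2BP2 (-0.06 ± 0.06). Their median was -0.16, none had an unadjusted p under 0.05 in edgeR and DESeq2 called none.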

How the data were processed

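RNA was measured in 6 libraries. Poly(A) RNA was taken with oligo(dT) beads and primed with random hexamers, per the labels' protocols, and sequenced on an Ion Proton. The labels name no step that keeps strand, so sense and antisense reads of overlapping genes cannot be told apart. The deposited library tables give the authors' estimated count of reads and RPKM per gene model, per the file headers. The deposited series table repeats the authors' RPKM values and adds annotation. The build was Sscrofa 10.2, per the submitters' processing notes, and software for alignment and counting was not given in the sources used here.

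For testing, the estimated counts were rounded, filtered with filterByExpr (minimum count 10), TMM-scaled and compared between GW0742 and DMSO by edgeR's quasi-likelihood test (version 4.0.16, R 4.3.3), with Benjamini-Hochberg adjustment over 14146 models and a threshold of 0.05. CPM here means reads over the TMM-adjusted total of the tested models. A floor of 3 reads is 0.178 to 0.230 CPM and covers counting error only. No pair of libraries agreed within sampling noise (chi-square per degree of freedom within groups 4.06 to 14.9, between groups 9.51 to 16.7). Single genes and sums have no exact test below p = 0.1 with 3 libraries per group. The fit was tested on simulated counts, where edgeR recovered 65.7, 85.1 and 95.5% of genes changed 1.5-, 2- and 4-fold. Of its calls there 4.09% were false. The simulation gave every gene the same dispersion, so it does not show how often calls are right in these libraries.

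The members and lists were chosen with earlier results of these data known. The naming rule takes all 10 genes, PPARD, ANGPTL4, PDK4 and CPT1A, list genes past the threshold and the 2 highest and 2 lowest of each list, and the 3 genes nearest in pattern to a called member. IGF2R, INSR, PAPPA, STC2, HTRA3, CRIM1, CYR61, EIF4EBP1, IRS1 and the marker genes were named after their values were seen. Model identifiers were matched to symbols for 11147 models by a gene name table, and for 567 by protein and pathway identifiers. Listed genes with no model of their symbol were not analysed here. Alternatives were median-of-ratios factors, DESeq2 1.42.0, no filter, limma 3.58.1 on log2(RPKM + 1) and log2(RPKM + 0.1), summed models of 1 protein name, a replicate block, an adjusted p under 0.01 and leaving out each library.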

Additional observations from a re-analysis of the deposited data

How the results depend on the processing

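The number of IGF genes called higher (1) became 2 in DESeq2, 0 with an adjusted p under 0.01, 0 with the replicate block and 0 to 2 with 1 library left out. None was called lower in any fit. In edgeR 26 models were higher and 11 lower. The counts were 207 and 234 in DESeq2, 13 and 3 without a filter, 6 and 0 at an adjusted p under 0.01, 46 and 21 with summed models, 10 and 0 with the replicate block, and 6 to 54 and 0 to 47 with 1 library left out. Limma gave 3 lower on log2(RPKM + 1), and 17 higher and 4 lower on log2(RPKM + 0.1). The cause of these differences was not tested. The replicate numbers are not stated to pair libraries, and libraries of 1 number did not deviate together (correlations 0.0054, -0.032 and -0.10). The block changed no other call of a member. Without IGFBP7 the summed binding protein RPKM was lower with GW0742 by a difference of -27.9, against 21.3 with it, 2.84 after rescaling by TMM factors, 4.76 with the further models and -1.80 (without DMSO replicate 1) to 35.2 (without GW0742 replicate 2) with 1 library left out. The receptor sum differed by 30.1 RPKM with its further models, which was chosen after seeing the data, against 3.05. Over members and further models, 147 values stayed on their side of the threshold, 4 lost the call (IGFBP7) and 2 gained it (IGFBP3). The sign changed in 6 of 13 alternatives for IGF1, 4 of 12 for ENSSSCG00000004812 and 1 of 13 for IGFBP4, none of them called. IGF1, IGF2 and IGFBP3 rest on 20 to 172 reads per library.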
